A study of Homo sapiens with 27 samples.

Results

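The BEX family comprises 5 small genes, BEX1 to BEX5, on the long arm of the human X chromosome. The 5 members, of 27546 gene symbols listed in the deposited tables, were chosen by their symbols because BEX1 went from 0 counts to between 559 and 1290 with RIPK2 guides in 22Rv1 and from at least 476 to at most 32 in PC3. BEX1 values against control in those lines were therefore selected on, and they are given as a description with no test. BEX2, BEX3, BEX4 and BEX5, and the comparison of the RIPK2 guides with each other, were not used in that choice.

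RNA sequencing covered 27 libraries from 3 human prostate cancer cell lines in which CRISPR guide RNAs targeted RIPK2, a kinase that relays signals from the bacterial sensors NOD1 and NOD2. 22Rv1 cells carried control gRNA 1 (genotype WT in the labels), RIPK2 gRNA 1 or RIPK2 gRNA 10, and DU145 and PC3 cells carried control gRNA 1, RIPK2 gRNA 2 or RIPK2 gRNA 10. Each of these 9 groups had 3 libraries, and the guide groups carry a RIPK2 knockout genotype in the labels. The labels do not say whether a group is 1 clone or a pool of edited cells, nor whether replicates are separate cultures, so p-values measure only the spread between these libraries and a difference between guides cannot be told apart from a difference between clones.

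BEX proteins are short, largely disordered proteins known chiefly from the nervous system, hence the name brain-expressed X-linked. BEX1 and BEX3 (also called NADE or NGFRAP1) have been described as partners of the p75 neurotrophin receptor, which NGFR encodes, with BEX3 linked to its death signalling. BEX1 and BEX2 have been described as genes that are silenced by promoter methylation in some tumours, BEX2 as a partner of the transcription regulator LMO2, and BEX4 as a protein that binds tubulin. BEX5 is the least studied member.

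In the GENCODE 29 annotation of GRCh38, BEX1, BEX4, BEX2 and BEX3 form a cluster and BEX5 stands apart from it. BEX1 lies at chrX:103062651-103064240 on the minus strand, BEX4 at chrX:103215092-103217246 on the plus strand, BEX2 at chrX:103309346-103311046 on the minus strand and BEX3 at chrX:103376340-103378077 on the plus strand. BEX5 lies at chrX:102153708-102156057 on the minus strand. Measured from the BEX1 start, the start of BEX4 is at 150.9 kb, that of BEX2 at 246.8 kb, that of BEX3 at 312.1 kb and that of BEX5 at -908.2 kb.

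The promoters are shown because these genes respond separately although their start regions fall into 2 look-alike pairs. Each line below gives the 100 bases just before the RefSeq start on the gene's own strand (GRCh38.p14), in lower case, with the E-box letters CACGTG in capitals.
BEX1: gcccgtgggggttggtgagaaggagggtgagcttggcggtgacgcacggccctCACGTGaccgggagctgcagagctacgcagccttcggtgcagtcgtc
BEX3: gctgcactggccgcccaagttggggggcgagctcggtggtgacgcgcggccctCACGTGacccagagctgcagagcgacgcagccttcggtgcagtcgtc
BEX2: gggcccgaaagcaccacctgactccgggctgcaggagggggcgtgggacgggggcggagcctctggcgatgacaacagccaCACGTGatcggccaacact
BEX4: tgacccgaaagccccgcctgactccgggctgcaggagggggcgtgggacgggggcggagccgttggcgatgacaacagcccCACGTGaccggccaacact
BEX5: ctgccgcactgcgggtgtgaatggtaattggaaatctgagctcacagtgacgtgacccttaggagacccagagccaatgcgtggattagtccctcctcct
These stretches lie at chrX:103064172-103064271 for BEX1, chrX:103376438-103376537 for BEX3, chrX:103310991-103311090 for BEX2, chrX:103215008-103215107 for BEX4 and chrX:102155978-102156077 for BEX5.

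CACGTG begins 47 bases before the RefSeq start in BEX1 and BEX3 and 19 bases before it in BEX2 and in the BEX4 window printed. In the other BEX4 window it begins 3 bases before the start. The GENCODE 29 starts lie further upstream than the RefSeq starts printed here, by 69 bases for BEX1, 56 for BEX2, 198 for BEX3, 16 for BEX4 and 80 for BEX5, so in BEX1, BEX2 and BEX3 the letters lie downstream of the GENCODE start. Neither of the 2 BEX5 windows of 300 bases (250 before to 50 after the start) holds it. RefSeq gives 3 windows for BEX3 and 2 each for BEX4 and BEX5, and the windows printed were chosen with the motif in view. For BEX3 the window that holds it was taken. For BEX4, where both hold it, the window with the motif whole before the start was taken. For BEX5, where neither holds it, the window that aligned better with that of BEX1 was taken. The identities below use these chosen windows. Searched on both strands (the motif reads the same on each), CACGTG was present in 7.26% of all 35116 windows and in at least 1 window of 8.77% of 27305 genes. Over the 300 bases, BEX1 and BEX3 were identical at 76.7% of positions and BEX2 and BEX4 at 84.7%, against 42.7% to 49.3% for the other pairs. TATAAA was in none of the 5 windows (11.5% of all windows hold it). CCAAT was in those of BEX1, BEX3 and BEX5 (34.6% of all windows), and GGGCGG in those of BEX2, BEX3, BEX4 and BEX5 (45.0%). CG dinucleotides numbered 25 in BEX1, 23 in BEX3, 17 in BEX2 and BEX4 and 14 in BEX5, where the median window holds 14. These matches describe the letters only, and neither methylation nor factor binding was measured.

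Library totals ran from 17958558 to 20650819 counts. RIPK2 counts were lower with every guide, with no overlap with control. Its level in CPM (reads of a gene relative to the TMM-scaled library total) went from 16.7 ± 1.29 in control to 8.69 ± 0.633 with gRNA 1 and 5.38 ± 0.189 with gRNA 10 in 22Rv1 (SD, n = 3). It went from 42.4 ± 2.67 to 11.8 ± 1.77 with gRNA 2 and 34.8 ± 1.51 with gRNA 10 in DU145, and from 60.4 ± 1.74 to 20.6 ± 0.946 and 27.2 ± 1.51 in PC3. RIPK2 mRNA was thus closest to control in DU145 with gRNA 10, and a transcript level need not show the protein. The 22Rv1 gRNA 1 replicate 3 library stood apart, with 16.7% of its counts from mitochondrial genes, against 0.515% to 2.10% in the other 22Rv1 libraries. Changes of BEX genes, list counts and named list genes that alter their call or move by over 1.5 times without that library are named where they are given. The refit of the lists without it was chosen after seeing the data.

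**Figure D1:**
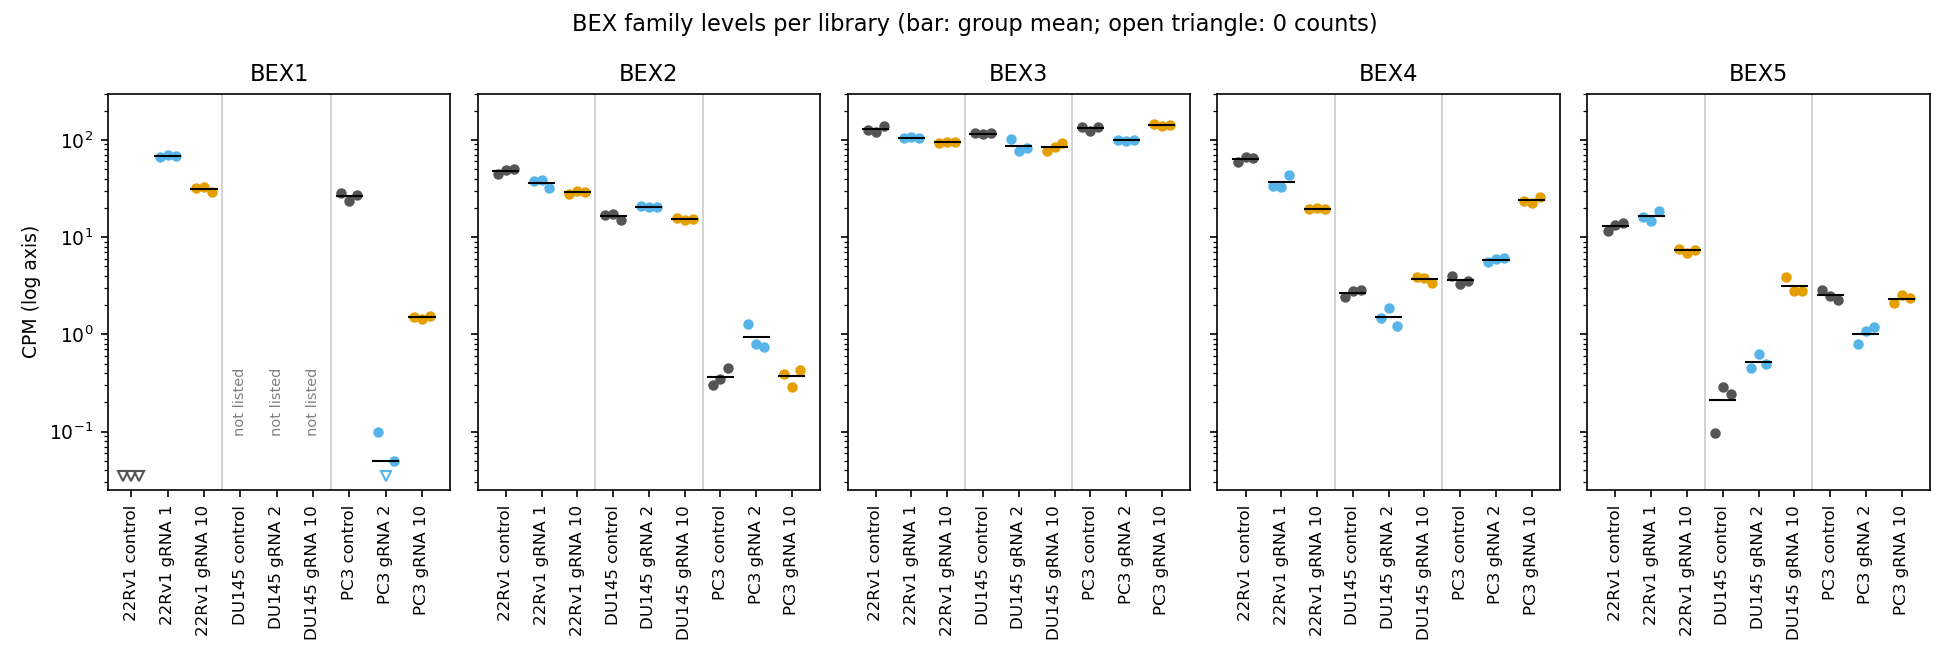
Level of each BEX gene in each of the 27 libraries, in CPM on a log axis, with 1 panel per gene, 9 groups along the horizontal axis (grey control, blue first RIPK2 guide, orange gRNA 10) and a bar at the group mean. Open triangles are libraries with 0 counts, and BEX1 has no row in the DU145 table. BEX1 moves from 0 counts to 31.4 and 68.6 CPM in 22Rv1 and from 26.4 CPM to near 0 in PC3, while BEX3 stays between 84.5 and 142 CPM in all group means.

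In control cells the family differed widely between lines, and BEX3 was its most abundant member per length in each of them. On the scale of CPM per kilobase of exon, BEX3 stood at 119 ± 7.97 in 22Rv1, 108 ± 1.5 in DU145 and 122 ± 6.18 in PC3 (SD, n = 3). BEX4 (47.9 ± 3.19) and BEX2 (40.8 ± 2.42) followed in 22Rv1, then BEX5 (12.2 ± 1.22), with BEX1 at 0. In DU145, BEX2 (14.0 ± 1.04) followed BEX3, and BEX4 (2.02 ± 0.156) and BEX5 (0.197 ± 0.0945) were low. In PC3 the second member was BEX1 (30.5 ± 2.83), and BEX4 (2.74 ± 0.252) and BEX5 (2.37 ± 0.289) had overlapping ranges, with BEX2 lowest (0.310 ± 0.0639). These orders between genes were not tested.

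Tested between control groups in the edgeR model of all 27 libraries, 3 of the 4 members BEX2 to BEX5 differed between 22Rv1 and DU145, where 75.9% of all genes did. All 4 differed between 22Rv1 and PC3, where 80.5% of all genes did, and all 4 between DU145 and PC3, where 75.9% did. The shares of members called are thus near those of all genes, but the sizes were large. BEX2 was higher in 22Rv1 than in DU145 by 1.53 ± 0.10 on the log2 scale (SE, edgeR adjusted p = 2.02e-13) and higher than in PC3 by 6.86 ± 0.16 (edgeR adjusted p = 5.54e-23). BEX4 was higher in 22Rv1 than in DU145 by 4.56 ± 0.13 (edgeR adjusted p = 2.46e-21), and BEX5 by 5.91 ± 0.24 (edgeR adjusted p = 5.77e-18). BEX3 differed less. Its difference between DU145 and PC3 was -0.32 ± 0.09, with no overlap between the libraries (edgeR adjusted p = 0.00137). That between 22Rv1 and DU145 was 0.14 (95% interval -0.03 to 0.31, edgeR adjusted p = 0.146), and that between 22Rv1 and PC3 was -0.19 ± 0.09 with overlapping libraries (edgeR adjusted p = 0.0483, lost with RLE factors and without 22Rv1 control replicate 1 or 2 or PC3 control replicate 1 or 3, up to 0.169).

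BEX1 was silent in 22Rv1 control cells and present with both RIPK2 guides. The control libraries held 0, 0 and 0 counts, the gRNA 1 libraries 1260, 1290 and 1160, and the gRNA 10 libraries 626, 642 and 559. All 6 guide libraries stood far above all controls. In CPM the level was 68.6 ± 1.37 with gRNA 1 and 31.4 ± 2.31 with gRNA 10 (SD, n = 3). A count of 0 allows up to 3 counts a library, or 0.161 CPM, so the bound on the BEX1 rise is at least 427-fold for gRNA 1. For gRNA 10 the bound is at least 196-fold. These floors cover counting error only.

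PC3 showed the opposite. Its control libraries held 570, 476 and 542 BEX1 counts, its gRNA 2 libraries 2, 0 and 1, and its gRNA 10 libraries 31, 30 and 32. No guide library reached the controls, and the guides left different amounts. The level fell from 26.4 ± 2.44 CPM (SD, n = 3) to 1.49 ± 0.0470 with gRNA 10, which is 5.67% of control or 17.6-fold lower, and the fall with gRNA 2 was at least 178-fold. DU145 gave no BEX1 row, and BEX1 in that line was not analysed here. Each listed gene of each table has at least 1 count over its libraries.

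The guides themselves differed in BEX1 level, a comparison the choice of genes did not use. In 22Rv1, BEX1 was 2.18-fold higher with gRNA 1 than with gRNA 10 (log2 difference 1.13 ± 0.10 SE, edgeR adjusted p = 4.29e-05), where 35.6% of all genes differed between the guides. In PC3 gRNA 2 left at least 10.1-fold lower BEX1 than gRNA 10 (edgeR adjusted p = 2.68e-10), where 73.4% of genes differed. RIPK2 mRNA was lower with gRNA 10 in 22Rv1 and lower with gRNA 2 in PC3.

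None of the relatives moved with BEX1 in all 4 guide comparisons of 22Rv1 and PC3. BEX5 had the direction of BEX1 with the first guide in each of these lines but not with 22Rv1 gRNA 10, and BEX4 had the opposite direction in all 4. The 4 other members against control, over 6 guide comparisons, gave 24 tests. BEX5 in DU145 and BEX2 in PC3 passed the filter on low counts only through the 1 group where they were high, so their 4 tests are left out of the counts that follow. Of the other 20 tests, 17 were called (5 higher, 12 lower), 3 of them past 2-fold. In 22Rv1, all 4 were called with gRNA 1 (1 higher, 3 lower) against 48.5% of all genes (25.6% higher, 22.9% lower), and all 4 were lower with gRNA 10 against 40.6% of all genes (20.0% higher, 20.6% lower). In DU145, all 3 that count were called with gRNA 2 (1 higher, 2 lower) against 34.0% of all genes (17.1% higher, 17.0% lower), and 1 of 3 with gRNA 10, lower, against 40.0% (20.2% higher, 19.8% lower). In PC3, all 3 that count were called with gRNA 2 (1 higher, 2 lower) against 63.6% (32.1% higher, 31.5% lower), and 2 of 3 with gRNA 10, both higher, against 73.5% (37.9% higher, 35.6% lower). Counts of 3 or 4 genes that lie close together and share sequence are small, and comparisons of a line share its control libraries.

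**Figure D2:**
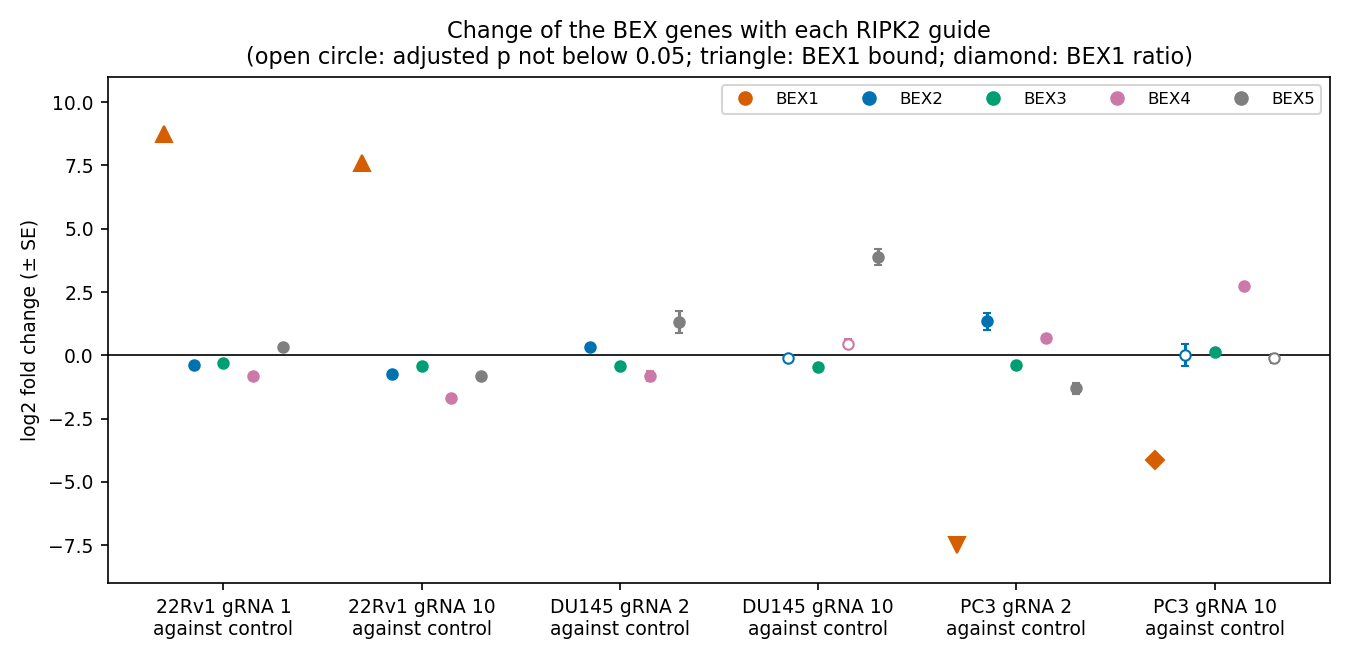
Log2 fold change of each BEX gene with each RIPK2 guide against control, with SE as bars for BEX2 to BEX5 (edgeR; filled circles have adjusted p below 0.05, open circles do not). BEX1 is a description: triangles are bounds against 3 counts a library and the diamond is the ratio of mean CPM. BEX1 goes up in 22Rv1 and down in PC3, BEX4 falls by 1.70 with 22Rv1 gRNA 10 and rises by 2.72 with PC3 gRNA 10, and the points of BEX5 in DU145 (3.88 with gRNA 10) and of BEX2 in PC3 are descriptions, since those genes passed the filter only through 1 group.

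BEX4, the tubulin-binding member, fell in 22Rv1 and rose in PC3 with both guides. In 22Rv1 it fell from 1102, 1237 and 1225 counts in control to 631, 604 and 726 with gRNA 1 and 378, 388 and 376 with gRNA 10. The 3 groups did not overlap, with control highest and gRNA 10 lowest. Its level went from 63.6 ± 4.23 CPM to 36.5 ± 5.83 and 19.6 ± 0.345 (SD, n = 3), a log2 change of -0.80 ± 0.12 with gRNA 1 (SE, edgeR adjusted p = 0.000286) and -1.70 ± 0.12 with gRNA 10 (edgeR adjusted p = 1.70e-06).

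PC3 cells had far less BEX4 in control and more with the guides. Control libraries held 80, 67 and 72 counts, gRNA 2 libraries 114, 122 and 122, and gRNA 10 libraries 491, 469 and 533. Again no group overlapped another, but here control was lowest. The rise was 0.69 ± 0.12 on the log2 scale with gRNA 2 (SE, edgeR adjusted p = 1.20e-05) and 2.72 ± 0.09 with gRNA 10 (edgeR adjusted p = 1.42e-21), from 3.63 ± 0.335 to 24.0 ± 1.53 CPM, or 6.60-fold. BEX4 and BEX1 thus changed in opposite directions in both lines.

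In DU145 the guides moved BEX4 apart. Control libraries held 51, 58 and 58 counts, gRNA 2 libraries 30, 38 and 22, and gRNA 10 libraries 77, 76 and 68. BEX4 fell with gRNA 2 by 0.81 ± 0.20 (log2, SE, edgeR adjusted p = 0.0101). With gRNA 10 the log2 difference was 0.46 (95% interval 0.10 to 0.81, edgeR adjusted p = 0.0662), and the libraries did not overlap. That p ranged from 0.0111 to 0.201 over 14 alternatives and passed the threshold in 3 of them, without gRNA 2 replicate 2, without gRNA 2 replicate 3 and with only the compared libraries fitted. Between the guides BEX4 differed by -1.27 ± 0.19 (gRNA 2 minus gRNA 10, edgeR adjusted p = 0.000638), where 38.8% of all genes differed.

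BEX5, the distant member, was near the detection limit in DU145 except with gRNA 10. Its counts were 2, 6 and 5 in control, 9, 13 and 9 with gRNA 2, and 78, 56 and 56 with gRNA 10. The groups did not overlap, and only gRNA 10 had all 3 libraries above the count minimum of the filter, so the gene passed only through the group where it was high and its values are a description with no test. The level was 0.209 ± 0.10 CPM in control, 0.526 ± 0.0965 with gRNA 2 and 3.18 ± 0.652 with gRNA 10 (SD, n = 3). The gRNA 10 mean was 15.2-fold that of control and 6.04-fold that of gRNA 2.

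BEX5 in the other lines was lower with 1 guide each. In 22Rv1 it held 216, 250 and 261 counts in control, 304, 273 and 309 with gRNA 1, and 147, 134 and 144 with gRNA 10. The gRNA 10 libraries lay below all others, with a log2 change of -0.83 ± 0.13 (SE, edgeR adjusted p = 0.000479). The rise with gRNA 1 was 0.34 ± 0.12 (edgeR adjusted p = 0.0435) and was lost in 12 of 14 alternatives, up to 0.158. It held with RLE factors and without gRNA 1 replicate 2 only. In PC3 the counts were 57, 50 and 45 in control, 16, 22 and 24 with gRNA 2, and 43, 53 and 49 with gRNA 10. BEX5 fell with gRNA 2 by 1.30 ± 0.21 (log2, edgeR adjusted p = 2.84e-06), and with gRNA 10 the libraries overlapped control (log2 difference -0.11, 95% interval -0.45 to 0.22, edgeR adjusted p = 0.557).

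BEX3, the p75 neurotrophin receptor partner, had log2 changes between -0.46 and 0.11 over the 6 guide comparisons. In 22Rv1 it went from 2374, 2240 and 2565 counts to 1945, 1975 and 1753 with gRNA 1 and 1811, 1857 and 1842 with gRNA 10. All guide libraries lay below all controls. The log2 changes were -0.29 ± 0.08 (SE, edgeR adjusted p = 0.0136, lost without control replicate 3 and with only the compared libraries, up to 0.0689) and -0.44 ± 0.08 (edgeR adjusted p = 0.00161).

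In DU145, BEX3 went from 2436, 2386 and 2405 counts to 2053, 1584 and 1500 with gRNA 2 and 1514, 1674 and 1875 with gRNA 10. Both guides were below control without overlap, by log2 changes of -0.41 ± 0.11 (SE, edgeR adjusted p = 0.0176, 0.0569 at most, lost without control replicate 1 or 3) and -0.46 ± 0.11 (edgeR adjusted p = 0.00839). PC3 gave 2721, 2484 and 2702 counts in control, 2035, 1969 and 2040 with gRNA 2, and 3013, 2871 and 2954 with gRNA 10. There BEX3 fell with gRNA 2 by 0.40 ± 0.04 (edgeR adjusted p = 9.56e-10). It rose with gRNA 10 by 0.11 ± 0.04 (edgeR adjusted p = 0.0140), a call lost without control replicate 2 or gRNA 10 replicate 1 (up to 0.154).

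BEX2, the LMO2 partner, fell in 22Rv1 in the libraries where BEX1 appeared. Its counts were 837, 921 and 926 in control, 715, 720 and 537 with gRNA 1, and 542, 574 and 561 with gRNA 10. Every guide library was below every control. The log2 change was -0.40 ± 0.10 with gRNA 1 (SE, edgeR adjusted p = 0.00785) and -0.73 ± 0.10 with gRNA 10 (edgeR adjusted p = 0.000218).

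BEX2 in DU145 held 353, 364 and 310 counts in control, 419, 423 and 368 with gRNA 2, and 312, 301 and 308 with gRNA 10. It rose with gRNA 2 by 0.32 ± 0.09 (log2, SE, edgeR adjusted p = 0.0245, lost without control replicate 1 or 3, with a replicate block and with only the compared libraries, up to 0.115). With gRNA 10 it overlapped control (log2 difference -0.10, 95% interval -0.29 to 0.08, edgeR adjusted p = 0.420). PC3 libraries held few BEX2 reads, 6, 7 and 9 in control, 26, 16 and 15 with gRNA 2, and 8, 6 and 9 with gRNA 10. BEX2 passed the filter in PC3 only through its gRNA 2 libraries, so these values are a description with no test. Its level was 0.365 ± 0.0751 CPM in control, 0.937 ± 0.299 with gRNA 2 and 0.369 ± 0.0734 with gRNA 10 (SD, n = 3), and the gRNA 10 libraries overlapped control.

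The guides also differed from each other in most relatives. In 22Rv1, BEX4 was higher with gRNA 1 than with gRNA 10 by 0.89 ± 0.12 (log2, SE, edgeR adjusted p = 0.000241) and BEX5 by 1.17 ± 0.13 (edgeR adjusted p = 6.08e-05). BEX2 was higher by 0.33 ± 0.10 (edgeR adjusted p = 0.0269), a call lost in 6 of 14 alternatives (up to 0.109), which were no filter and leaving out gRNA 1 replicate 1 or 2 or any gRNA 10 library. BEX3 did not pass there (0.15, 95% interval -0.01 to 0.31, edgeR adjusted p = 0.189) or in DU145 (0.05, 95% interval -0.17 to 0.27, edgeR adjusted p = 0.765). DU145 gRNA 2 had more BEX2 than gRNA 10, by 0.42 ± 0.09 (edgeR adjusted p = 0.00587). In PC3 BEX4 differed by -2.03 ± 0.09, BEX5 by -1.19 ± 0.21 and BEX3 by -0.51 ± 0.04 (gRNA 2 minus gRNA 10, edgeR adjusted p of 9.99e-06 or less).

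Sequence shared between members touches how reads are assigned. The BEX1 and BEX2 transcripts were identical at 90.9% of 690 aligned bases. Of all 50-base words of BEX1, 3.19% also occur in BEX2, and of those of BEX2, 2.38% occur in BEX1 or BEX4. BEX3 and BEX5 share none, and no member shares a word of 100 bases with another gene. BEX1 and BEX2 counts moved apart where both were measured: 22Rv1 control had 0 BEX1 counts beside 837 to 926 of BEX2, and PC3 control had 476 to 570 of BEX1 beside 6 to 9 of BEX2.

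gRNA 10, the guide used in all 3 lines, changed BEX2 to BEX5 by different amounts in different lines. In the edgeR model of all libraries, 3 of 4 members had a different gRNA 10 effect in 22Rv1 and DU145 (44.7% of all genes did), 3 of 4 in 22Rv1 and PC3 (47.6%) and 3 of 4 in DU145 and PC3 (48.1%). The counts with DU145 take in BEX5, which passed the filter within that line only through gRNA 10. Those with PC3 take in BEX2, which passed it there only through gRNA 2. BEX4 gave a difference of -4.38 ± 0.16 between 22Rv1 and PC3 (log2, SE, edgeR adjusted p = 1.98e-17) and -2.14 ± 0.18 between 22Rv1 and DU145 (edgeR adjusted p = 2.60e-10). BEX5 gave -4.70 between 22Rv1 and DU145 and 4.03 between DU145 and PC3. Both rest on its DU145 values, with 2 to 6 counts in control, and are a description with no test. BEX5 also differed between 22Rv1 and PC3 by -0.68 ± 0.24 (edgeR adjusted p = 0.0203), a call lost without PC3 control replicate 3 or gRNA 10 replicate 2 (up to 0.0625). BEX3 did not pass between 22Rv1 and DU145 (0.03, 95% interval -0.21 to 0.27, edgeR adjusted p = 0.858), and BEX2 did not pass in the comparisons with PC3, where its counts were low.

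Summed over members, the family's transcript level changed less than BEX1 did. On the scale of CPM per kilobase, the sum in 22Rv1 was 220 ± 11.2 in control, 250 ± 3.56 with gRNA 1 and 170 ± 3.34 with gRNA 10 (SD, n = 3). BEX1 made up 31.7% of it with gRNA 1 and 21.3% with gRNA 10. In DU145 the sum of the 4 listed members was 124 ± 0.771, 100 ± 11.9 and 97.1 ± 7.44, of which BEX3 made 86.9%, 80.7% and 80.5%. PC3 gave 157 ± 9.28 in control, 98.3 ± 1.93 with gRNA 2 and 154 ± 3.93 with gRNA 10. With PC3 gRNA 10 the loss of BEX1, from 19.4% to 1.12% of the sum, stood beside gains of BEX4 and BEX3, and the control and gRNA 10 sums overlapped. The sum takes in BEX1 and was not tested.

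**Figure D3:**
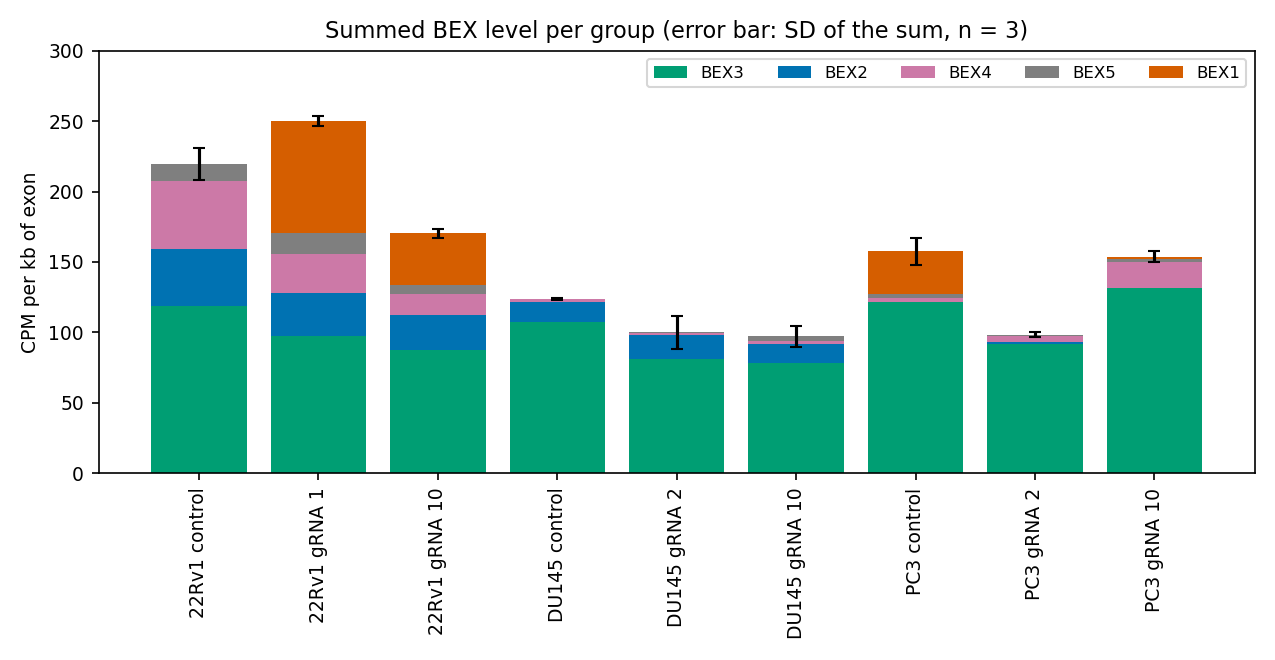
Summed BEX level in CPM per kilobase of exon for each of the 9 groups, stacked by gene, with the SD of the sum over 3 libraries as the error bar; BEX1 is not listed in DU145. BEX3 makes the largest part of every bar, and BEX1 contributes 31.7% with 22Rv1 gRNA 1 and 19.4% in PC3 control.

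To see how unusual the BEX1 pattern was, switch-like genes were counted in each line without a test. A gene counted as on with at most 3 counts in every control library and at least 100 in every RIPK2 guide library, and as off with at least 100 counts in every control library and at most 10% of the control mean CPM in every guide library. In 22Rv1, 3 of 24379 symbols were on (BEX1, HNMT and ARHGAP32, the last 2 named after their values were seen) and BEX1 was the highest of them, while 19 were off. DU145 had 0 on and 3 off, and PC3 had 2 on and 8 off, of which BEX1 was 1. BEX1 alone was on in 22Rv1 and off in PC3, and no gene was on in more than 1 line or off in more than 1 line. No other BEX gene met either definition. The definitions describe the same contrast that selected BEX1.

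The genes around BEX1 moved in both directions in 5 of 6 guide comparisons. Within 1.5 Mb of its start and apart from the BEX genes, 8 of 24 tested genes were called with 22Rv1 gRNA 1 (3 higher, 5 lower) and 11 of 24 with gRNA 10 (1 higher, 10 lower). In DU145 these numbers were 5 of 22 (0 higher, 5 lower) and 10 of 22 (3 higher, 7 lower), and in PC3 17 of 24 (9 higher, 8 lower) and 13 of 24 (4 higher, 9 lower). Median log2 changes of these neighbours lay between -0.26 and -0.03. The share called was 33.3%, 45.8%, 22.7%, 45.5%, 70.8% and 54.2% in that order, which is below the share of all genes in 3 comparisons and above it in 3. TCEAL8, a neighbour inside the BEX cluster between BEX4 and BEX2, was chosen after its values were seen. It was lower with 22Rv1 gRNA 10 by a log2 change of -0.45 ± 0.12 (SE, edgeR adjusted p = 0.0104) and higher with PC3 gRNA 10 by 0.40 ± 0.06 (edgeR adjusted p = 2.12e-07). Its other log2 differences from control were -0.03 with 22Rv1 gRNA 1, -0.22 with DU145 gRNA 2, 0.08 with DU145 gRNA 10 and 0.06 with PC3 gRNA 2, with edgeR adjusted p of 0.120 or more. TCEAL9 and NXF3 were also chosen after their values were seen. TCEAL9, between BEX2 and BEX3, changed by -0.15 and -1.14 with 22Rv1 gRNA 1 and gRNA 10 (log2). Its changes were -0.13 and 0.18 with DU145 gRNA 2 and gRNA 10, and 0.02 and 0.27 with PC3 gRNA 2 and gRNA 10. In PC3, NXF3 at 28.9 kb was the tested gene nearest BEX1. NXF3 differed by 3.76 ± 0.53 with gRNA 2 and 0.51 ± 0.90 with gRNA 10 (log2, SE).

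**Figure D4:**
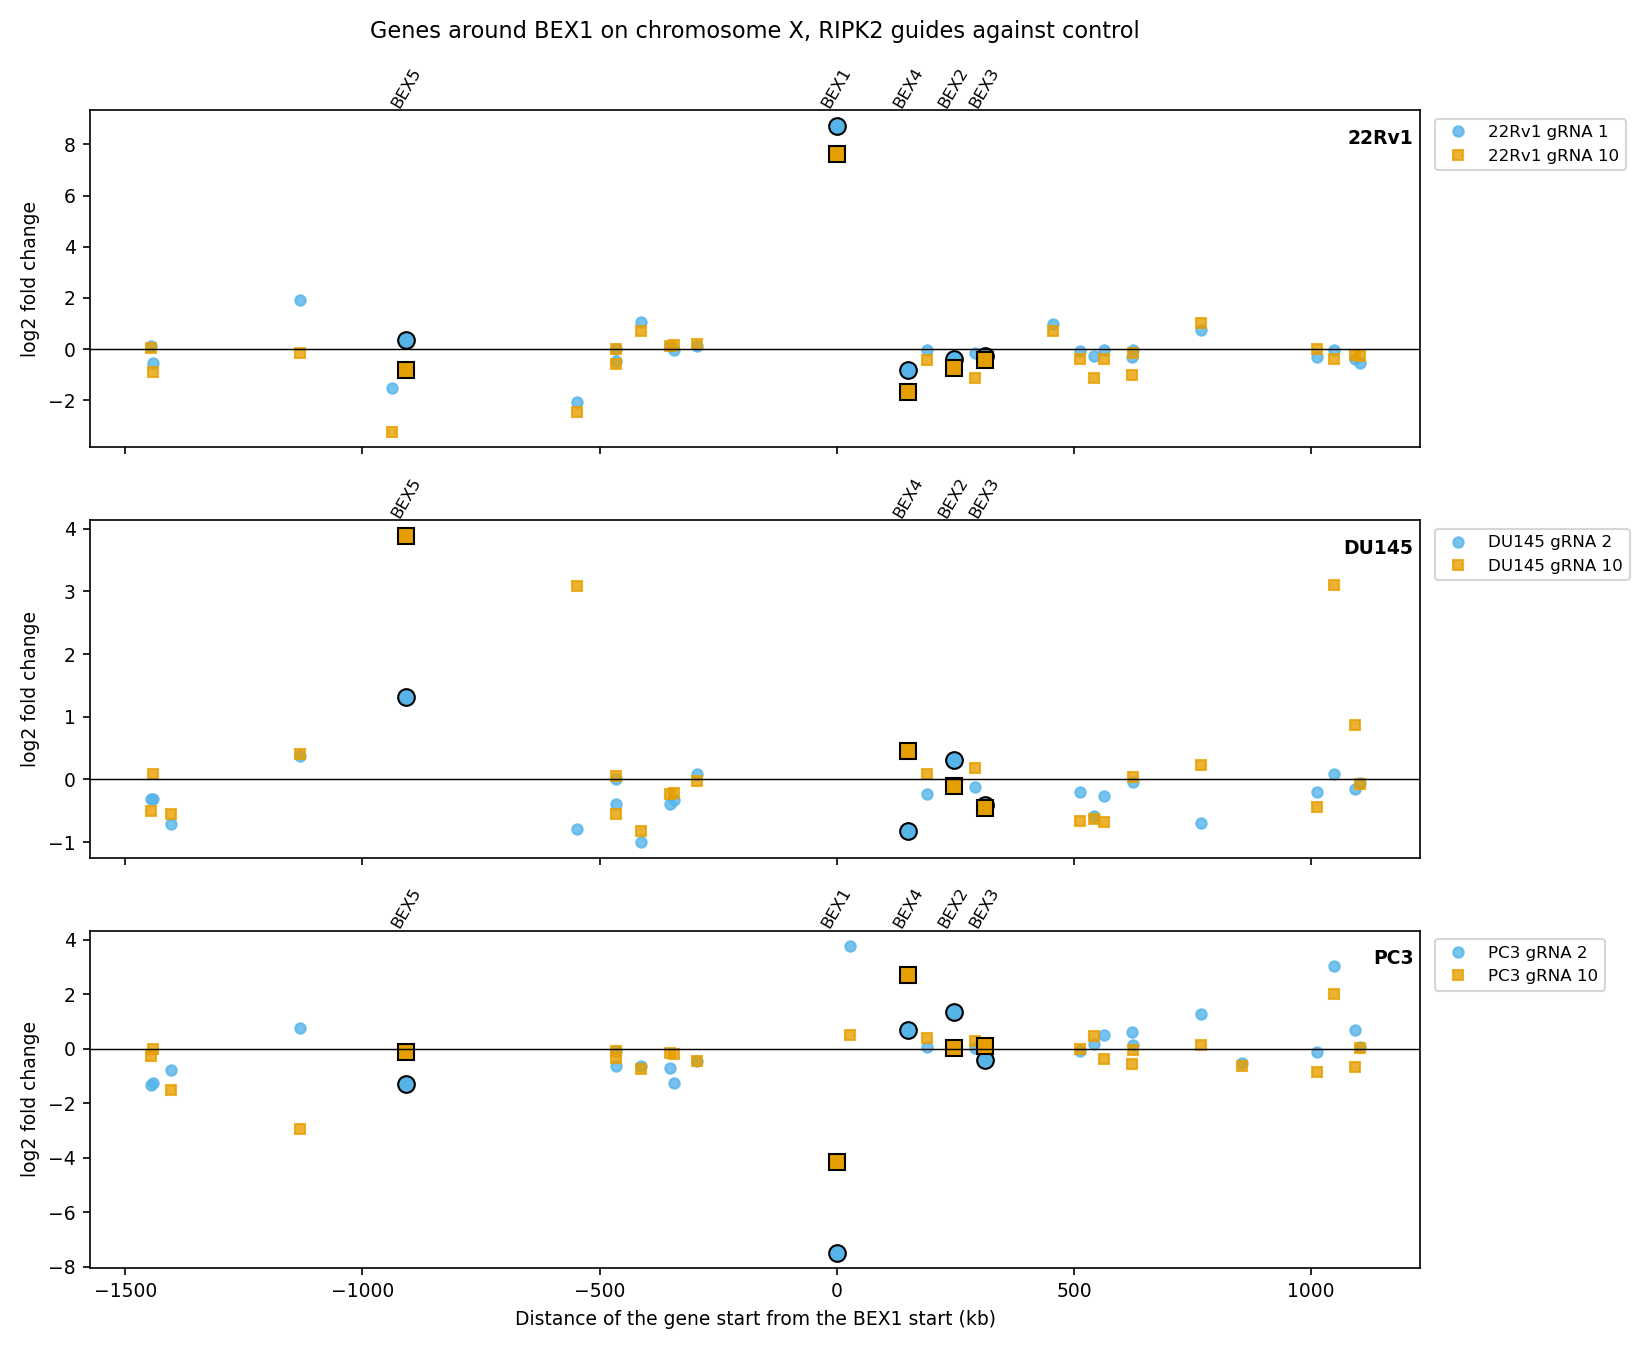
Log2 fold change of tested genes within 1.5 Mb of BEX1 against the distance of their start from the BEX1 start in kb, for each line, with blue circles for the first RIPK2 guide and orange squares for gRNA 10; BEX genes are outlined. BEX1 is placed at its bound or ratio. Median changes of the neighbours lie between -0.26 and -0.03, and BEX1 stands apart from the genes on both sides in 22Rv1 and PC3.

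A list of 31 genes of the same chromosome band (the ARMCX, TCEAL and GPRASP families and others) was fixed for the region. The shares of all genes called, against which its counts and those of the next lists are read, were 48.5% and 40.6% with the first guide and gRNA 10 in 22Rv1, 34.0% and 40.0% in DU145, and 63.6% and 73.5% in PC3. In 22Rv1, 22 were tested, 8 were called with gRNA 1 (3 higher, 5 lower; median log2 change -0.04 against 0.02 over all genes) and 11 with gRNA 10 (1 higher, 10 lower; median -0.32 against 0.00). TMSB15A, a thymosin that binds actin, fell by 2.06 ± 0.14 with gRNA 1 (log2, SE, edgeR adjusted p = 1.32e-06) and by 2.48 ± 0.14 with gRNA 10. TCEAL2 fell by 1.54 ± 0.29 and 3.24 ± 0.33, and RAB9B, a Rab GTPase, rose by 0.76 ± 0.23 and 1.03 ± 0.23. In DU145, 6 of 22 were called with gRNA 2 (all lower; median -0.29) and 11 with gRNA 10 (3 higher, 8 lower; median -0.23), with GPRASP1, TCEAL3 and ARMCX2 lower with both guides. In PC3, 14 of 20 were called with gRNA 2 (8 higher, 6 lower; median 0.04) and 11 with gRNA 10 (4 higher, 7 lower; median -0.05). The median of all genes was 0.01 with each PC3 guide and with DU145 gRNA 2, and 0.00 with DU145 gRNA 10. In PC3, ZCCHC18 rose by 3.04 ± 0.29 and 1.99 ± 0.34, and ARMCX2 and GPRASP1 fell with both guides.

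Neurotrophin receptors, their ligands and reported BEX partners, 18 genes in all, were the pathway list. In 22Rv1, 13 were tested and 2 were called with gRNA 1 (1 higher, 1 lower; median log2 change -0.01) and 4 with gRNA 10 (2 higher, 2 lower; median 0.11), beside 48.5% and 40.6% of all genes, whose medians were 0.02 and 0.00. LMO2, the BEX2 partner, fell with both guides, by 0.84 ± 0.32 (log2, SE, edgeR adjusted p = 0.0497) and 1.43 ± 0.33 (edgeR adjusted p = 0.00551). Without 22Rv1 gRNA 1 replicate 3 the first of these log2 changes was -1.33 (edgeR adjusted p = 0.000220). In DU145, 7 of 14 were called with gRNA 2 (4 higher, 3 lower; median -0.21) and 7 with gRNA 10 (6 higher, 1 lower; median 0.31), beside 34.0% and 40.0% of all genes, whose medians were 0.01 and 0.00. BDNF, a neurotrophin, fell there from 98.1 ± 2.67 CPM to 60.7 ± 3.67 and 35.7 ± 1.84 (SD, n = 3), and the Nogo receptor gene RTN4R rose by 0.58 ± 0.17 and 0.60 ± 0.17 (log2, SE), with the p75-binding zinc finger gene PRDM4 higher too. In PC3, 8 of 10 were called with gRNA 2 (3 higher, 5 lower; median -0.22) and 9 with gRNA 10 (5 higher, 4 lower; median 0.09), beside 63.6% and 73.5% of all genes, whose median was 0.01 with each guide. RTN4R and TRAF6 fell there with both guides.

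Neuronal and neuroendocrine genes, a list of 17, were counted because BEX genes are known from neurons. In 22Rv1, 9 of 12 tested genes were called with each guide (5 higher and 4 lower each time; median log2 change 0.33 with gRNA 1 and 0.39 with gRNA 10), beside 48.5% and 40.6% of all genes, whose medians were 0.02 and 0.00. Without 22Rv1 gRNA 1 replicate 3 the gRNA 1 median was 0.08, with 10 called (5 higher, 5 lower). Chromogranin A, CHGA, rose from 1 to 3 counts in control to 54 to 160 with gRNA 1 (54 to 63 without replicate 3) and 855 to 929 with gRNA 10. Chromogranin B, CHGB, rose by 1.06 ± 0.26 (0.59 without gRNA 1 replicate 3) and 1.76 ± 0.26 (log2, SE), and the neuronal RNA-binding gene ELAVL4 fell. The summed level of 8 neuroendocrine markers, 7 of them listed, was 166 to 183 CPM in 22Rv1 control, 337 to 522 with gRNA 1 (337 to 358 without replicate 3) and 296 to 315 with gRNA 10, so it moved with BEX1, while NCAM1, a defining marker, held 0 to 2 counts in every 22Rv1 library. In DU145, 5 of 8 were called with gRNA 2 (2 higher, 3 lower; median -0.18, or -0.01 with genes at the floor set to their bound) and 3 with gRNA 10 (2 higher, 1 lower; median -0.15), with the vesicle gene SNAP25 higher and the repressor REST lower with both guides. Of all genes, 34.0% and 40.0% were called, with medians of 0.01 and 0.00. NCAM1 held 0 to 1 counts in DU145 control, 0 with gRNA 2 and 332 to 392 with gRNA 10, where BEX5 was high. SYP went the other way with gRNA 10, from 7.16 ± 0.663 CPM in control to 5.39 ± 0.797 (SD, n = 3), and CHGB held 0 to 1 counts in both groups. ENO2 was at 113 ± 5.54 CPM in control and 131 ± 1.28 with gRNA 10. The marker sum, of 4 listed genes, was 114 to 126, 102 to 119 and 153 to 156 CPM. In PC3, 3 of 5 were called with gRNA 2 (all lower; median -0.36) and 4 with gRNA 10 (1 higher, 3 lower; median -0.49), beside 63.6% and 73.5% of all genes, with a median of 0.01 each. SYT1, SYP and DLL3 fell with both guides there, and the marker sum was 125 to 134 CPM in control, 124 to 125 with gRNA 2 and 135 to 141 with gRNA 10. The part of these markers in the changes of BEX1 and BEX5 was not tested.

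Basal and mesenchymal markers went in different directions with the guides in PC3, where BEX1 fell. CD44 was lower with both guides (318 ± 3.70 CPM in control, 203 ± 5.78 with gRNA 2 and 227 ± 6.53 with gRNA 10), and the keratin gene KRT7 was higher with both (95.2 ± 1.88, 589 ± 6.15 and 584 ± 37.8 CPM; SD, n = 3). AXL was higher with both too, with 2790 to 2957, 6427 to 6836 and 3642 to 3787 counts. Vimentin, VIM, was at 1463 ± 28.7 CPM in control, 2146 ± 37.7 with gRNA 2 and 1240 ± 34.7 with gRNA 10 (SD, n = 3). The 5 basal or mesenchymal markers summed to 1990 to 2044 CPM in control, 3235 to 3293 with gRNA 2 and 2149 to 2285 with gRNA 10. BEX1 was low with both guides, while VIM was above control with gRNA 2 and below it with gRNA 10. In 22Rv1 the 8 luminal markers summed to 1925 to 1963 CPM in control, 1448 to 1562 with gRNA 1 and 1825 to 1839 with gRNA 10. The part of these markers was not tested.

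Genes whose pattern was most like that of BEX1 were ranked by Pearson r of log2(CPM + 0.5) over 6 group means of 22Rv1 and PC3, among 16190 genes. DPCD came first (r = 0.979), followed by FAM177B (0.973), POLR2J (0.968), TRAPPC1 (0.965) and MFF-DT (0.963). Over 18 libraries in place of group means, DPCD ranked 1 and FAM177B 3, but POLR2J ranked 17, TRAPPC1 136 and MFF-DT 185. FAM177B and MFF-DT were also low, with at most 21 and 29 counts in a library of these lines. DPCD shared the shape but not the size: it stood at 16.3 ± 1.42 CPM in 22Rv1 control and 28.6 ± 1.80 with gRNA 1, and at 22.3 ± 1.21 in PC3 control and 15.2 ± 0.569 with gRNA 2 (SD, n = 3). The other BEX genes had r of 0.37 (BEX5), 0.19 (BEX2), -0.15 (BEX4) and -0.30 (BEX3) with BEX1. With 6 points that share lines and libraries, these values describe likeness only.

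Among the other members, taken over 9 group means and 16360 genes, BEX4 and BEX5 were the pair most alike (r = 0.84), a value that rests largely on the difference between lines. The genes most like BEX2 were ERVMER34-1 (0.996) and CCNB2 (0.995), those most like BEX3 were TADA3 and OXNAD1 (both 0.960), those most like BEX4 were IDI2-AS1 (0.978) and SSUH2 (0.973), and those most like BEX5 were CDKN2D (0.974) and SNX14 (0.958). Ranked over 27 libraries in place of group means, IDI2-AS1 was at 152, SSUH2 at 29 and SNX14 at 147, while the others stayed at 3 or better. IDI2-AS1 and SSUH2 were also low, with at most 30 and 28 counts in a library. BEX2 and BEX3 had r = -0.63. Of the pairs with look-alike promoters, BEX1 and BEX3 had r = -0.30 and BEX2 and BEX4 had r = 0.21.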

How the data were processed

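Messenger RNA of 27 libraries was sequenced strand-specifically by DNBSEQ (labels' protocols). Per the file headers, the deposited values are raw counts, 1 table for each cell line. FastQC, STAR, edgeR and hg38 are named in the submitters' processing notes, and the counting program is not given in the sources used here. Totals ran from 17958558 to 20650819 counts. Floors (3 counts where 0 were seen) cover counting error only. Each SE is the absolute log2 change over the square root of the edgeR F value, and so includes the spread between libraries. The 95% intervals use a normal quantile of that SE and can be narrower than the F test implies. Symbols listed more than once (6, 2 and 2 in 22Rv1, DU145 and PC3) were summed.

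edgeR 4.0.16 (R 4.3.3; TMM, filterByExpr with a minimum count of 10 and total of 15, robust quasi-likelihood F test, two-sided) was fitted to the 9 libraries of each line with group as the only term. Adjusted p-values are Benjamini-Hochberg over all genes tested, with calls below 0.05. Differences between lines came from 1 model of all 27 libraries over 20089 shared symbols, of which 16322 were tested. BEX1 is not listed in DU145, so it was left out of that model and its likeness was computed over 6 groups, not 9. Likeness used a pseudocount of 0.5 CPM. Exon lengths and neighbours are from GENCODE 29 and promoters from RefSeq (GRCh38.p14). The procedure was tested on simulated data, with genes of at least 10 counts on average in control. It was not tested on genes near the floor.

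The members and gene lists were chosen with earlier results of these data known. Named genes are the 5 members, RIPK2, up to 3 genes per list and line called in 1 direction with both guides with the largest smaller change, the 5 genes most like BEX1 and the 2 most like each other member. Replicate numbers are those of the titles. Library names number some replicates differently, and no source says that numbers pair samples. Alternatives were RLE factors, DESeq2 1.42.0, no filter, only the compared libraries, a replicate block and leaving out each library. The refit of the lists and neighbours without 22Rv1 gRNA 1 replicate 3 was chosen after seeing the data. Some genes that the naming rule or the marker lists hold are not reported here.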

Additional observations from a re-analysis of the deposited data

Results flagged for a closer look

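The gRNA 10 effect on BEX genes differed between cell lines by a test of the difference itself (edgeR, all 27 libraries, log2 scale). Between 22Rv1 and DU145 the difference was -0.62 for BEX2 (adjusted p = 0.000771) and -2.14 for BEX4 (adjusted p = 2.60e-10). Between 22Rv1 and PC3 it was -0.51 for BEX3 (adjusted p = 0.000993), -4.38 for BEX4 (adjusted p = 1.98e-17) and -0.68 for BEX5 (adjusted p = 0.0203, lost in 2 of 15 alternatives, up to 0.0625). Between DU145 and PC3 it was -0.54 for BEX3 (adjusted p = 0.000548) and -2.23 for BEX4 (adjusted p = 3.25e-10). The BEX5 differences with DU145 were -4.70 for 22Rv1 minus DU145 and 4.03 for DU145 minus PC3. They are a description with no test, since BEX5 passed the filter within DU145 only through gRNA 10.

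For BEX1, every gRNA 10 library of 22Rv1 was above its controls and every gRNA 10 library of PC3 was below its own, a difference of at least 11.75 on the log2 scale with a floor of 3 counts. That difference was not tested, since BEX1 was selected on it.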

How the results depend on the processing

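Of 62 fold changes of BEX genes fitted, 48 kept their direction and their side of the threshold in each alternative run, and 763 of 818 alternative values did so. These numbers, and the counts of members called that follow, take in BEX5 in DU145 and BEX2 in PC3. Both are left out of the counts of calls in the results above. The number of BEX2 to BEX5 called with 22Rv1 gRNA 1 was 2 with only the compared libraries and 2 to 4 when 1 library was left out. With DU145 gRNA 2 it was 2 with a replicate block, 2 with only the compared libraries and 1 to 4 when 1 library was left out, and with PC3 gRNA 10 it was 1 to 2. Leaving out 1 library also turned the sign of small differences that passed no threshold: BEX3 between DU145 guides (-0.0753 to 0.132), BEX2 with PC3 gRNA 10 (-0.110 to 0.184), and the gRNA 10 effects of BEX3 between 22Rv1 and DU145 (-0.0306 to 0.117) and of BEX2 between DU145 and PC3 (-0.264 to 0.0330). The cause was not tested. Of the 5 genes most like BEX1, 5 stayed with a pseudocount of 2 CPM and 2 over 18 libraries. Correlations of the deviations of same-numbered libraries ran from -0.08 to 0.34 in 22Rv1, where 1 of 9 pairs was over 0.1. DU145 gave -0.19 to 0.07 and PC3 -0.05 to 0.06, with no pair over 0.1. Not every pair passed, so the numbers were not treated as pairing the libraries under the replicate block. Depth limits BEX2 in PC3 control and PC3 gRNA 10, and BEX5 in DU145 control, with 9 counts or fewer a library.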
